A study of Mus musculus with 8 samples.

Results

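The levels of 32 genes of vascular smooth muscle cells and pericytes were followed in whole hearts of mouse embryos at E18.5, late in gestation.
They were listed by symbol, without the actin, myosin light-chain and tropomyosin families, and all 32 were found among the 49315 genes of the count files. Of these, 21 are genes of smooth muscle, 8 of pericytes and 3 of both cell types. The hearts were 4 wild type (WT) and 4 homozygous for M195I (the labels' CHD4 M195I/M195I), a change in CHD4, an ATPase that moves nucleosomes within the NuRD complex. The labels name no transgene, treatment or litter, and the p-values therefore measure the spread between these samples. The question is which of these transcripts differ in level between mutant and WT hearts.

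Smooth muscle cells surround arteries and contract when myosin light-chain kinase phosphorylates myosin, a step that myosin phosphatase reverses. Many of their contractile genes are driven by serum response factor (SRF) and its cofactor myocardin through a DNA element called the CArG box. Pericytes wrap capillaries, are recruited by endothelial PDGF-B acting on the receptor PDGFR-beta, and in the heart line the coronary microvessels. Both cell types are a minority in the heart, and several of the genes are also used by cardiomyocytes, fibroblasts or endothelium.

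A pair of promoter stretches is shown because these held a CArG box, and both genes fell in the mutants. No other member with a promoter window held an exact match to the box inside it. Boxes with a changed base, and boxes outside the windows, were not searched for. RefSeq promoter windows of GRCm38.p6, 250 bases before to 50 after each annotated start, were given for 23 of the 32 members. The other 9 had no window and were not searched: Tagln, Myh11, Tgfb1i1, Csrp2, Itga7, Aoc3, Pdgfrb, Higd1b and Foxs1. Whether these 9 have the box is unknown here. The CArG box (CC and GG around a core of A or T bases, which reads alike on both strands) stood in a window of 2 members, against 1.81% of the 27025 symbols in the table. The stretches below lie on the plus strand and are written 5′ to 3′, with the CArG box in capitals. Between the box and the start lie 46 bases in Cnn2 and 52 bases in Filip1l, there at the second of 2 annotated starts.
Cnn2, chr10:79988450-79988579: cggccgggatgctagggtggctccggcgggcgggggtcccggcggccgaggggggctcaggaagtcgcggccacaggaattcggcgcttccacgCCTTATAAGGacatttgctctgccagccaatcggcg
Filip1l, chr16:57549092-57549221: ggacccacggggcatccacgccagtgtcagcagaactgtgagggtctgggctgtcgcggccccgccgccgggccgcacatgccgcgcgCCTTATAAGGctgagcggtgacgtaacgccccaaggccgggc
Both genes carry the same letters, CCTTATAAGG. A match describes these letters and shows no binding. Of all 191 tested genes with the box in such a window, 27 were lower (14.1%) and 11 higher (5.76%) in the mutants, with a median log2 fold change of -0.01. Among the 11535 tested genes with a window but no box, 7.85% were lower and 6.15% higher. The 27 lower genes include Cnn2 and Filip1l, and the difference between these shares was not tested.

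Depth was alike in both genotypes, with total counts of 18375951 to 20815388 per WT library and 18673488 to 21341235 per mutant library. Airway epithelium RNA set libraries apart: Scgb3a2, a secretoglobin of airway cells, was at 176 to 498 CPM (counts scaled to library totals of 1e6) in 5 libraries, namely all WT libraries but replicate 2 and the last pair of mutant replicates, 3 and 4. It was at 0.817 CPM in WT replicate 2 and at 6.48 and 0.328 CPM in mutant replicates 1 and 2. In the files by library, each count column carries the word male in its name. WT replicate 4 stood apart in Y-linked transcripts, with Ddx3y at 35.5 CPM of the total against 70.3 to 80.4 CPM in the other 7 libraries, while Xist was between 1.25 and 1.98 CPM in all 8. The defining smooth muscle and pericyte markers were detected in every library. Levels below are CPM scaled by TMM (trimmed mean of M values), and a gene is called at an adjusted p under 0.05 in edgeR's quasi-likelihood test with Benjamini-Hochberg adjustment over all 16372 genes tested.

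In the mutant hearts 9 of the 32 members were lower and 1 was higher. The 6 smooth muscle genes that fell were Cnn2, Smtn, Ppp1r12b, Tgfb1i1, Pdlim7 and Filip1l, and Csrp2 rose. The 3 pericyte genes that fell were Cspg4, Mcam and Higd1b. None of the 3 genes of both cell types was called. All 32 members passed the filter on low counts. The share called lower was 28.1% of the members, against 7.49% of all genes tested, and 5.75% of all genes were called higher. The members were chosen with earlier results of these data known. This share, and the share without overlap below, therefore cannot serve as a test of the set. Of the 32 members, 31 had at least 10 counts in every library. The median log2 fold change (mutant minus WT) was -0.10 over the 21 smooth muscle genes and -0.06 over the 8 pericyte genes, beside -0.00 over all genes. Without WT replicate 4 these medians were -0.0299 and -0.00322, and with library totals -0.0521 and -0.00549. The pericyte median was -0.127 without WT replicate 1, so its size was not steady. With Xist as a covariate it was 0.0231, in a fit whose limit is given below. Changes were small: those called lower lay between -0.51 and -0.17. The groups did not overlap for 9 members (28.1%), where 18.6% of all genes tested had no overlap. All 4 mutant libraries lay below WT for 8 members and above it for 1, and among all genes tested these shares were 9.77% and 8.8%. In whole-heart RNA, fewer cells of a type and less RNA per cell cannot be told apart. Among the 3 libraries under 10 CPM of Scgb3a2, where the lone WT library is assumed to vary like the mutants, 6 members were called lower, Ppp1r14a now among them, and Csrp2, Ppp1r12b, Pdlim7, Mcam and Higd1b were not called. With Xist as a covariate, which was at 1.25 to 1.56 CPM in WT and 1.55 to 1.98 CPM in the mutants, Cnn2 and Cspg4 were the 2 members called. This covariate nearly follows genotype, so that fit cannot separate its effect from that of genotype.

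**Figure D1:**
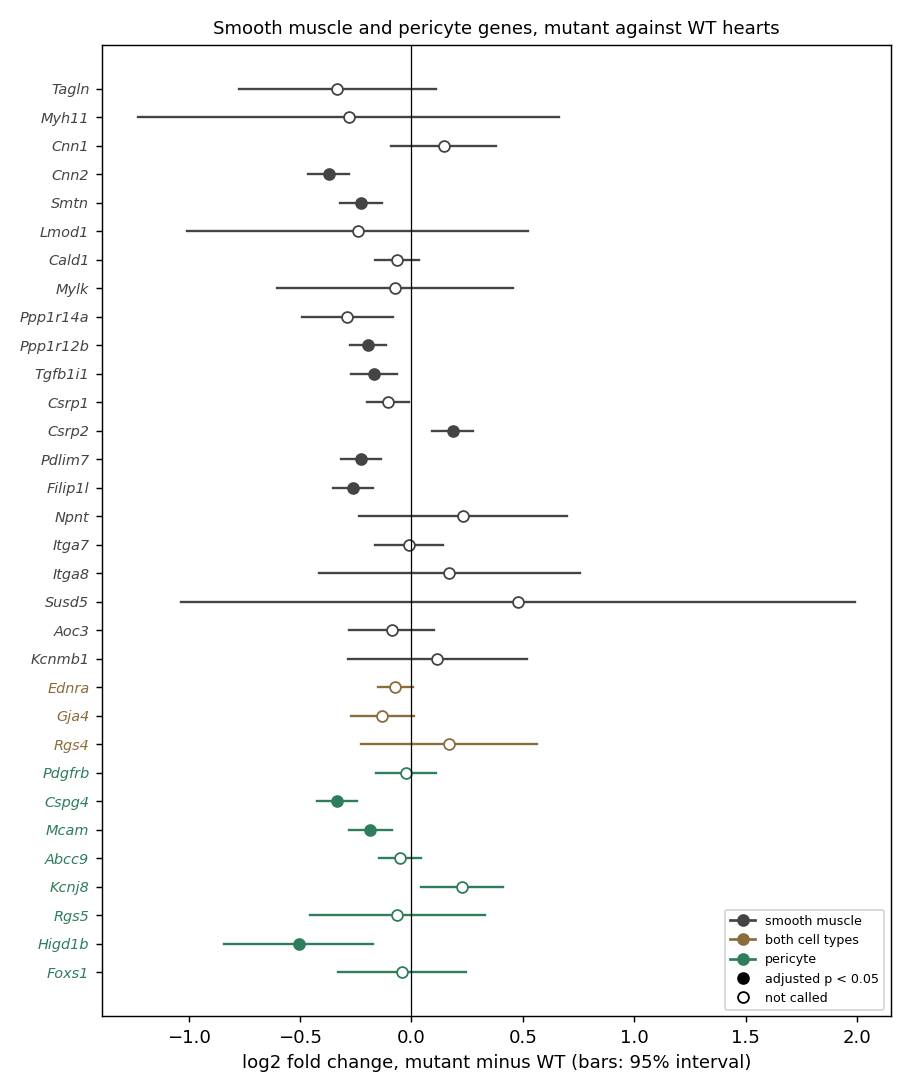
Log2 fold change (mutant minus WT) of each of the 32 members with its 95% interval, from the edgeR fit; filled points passed the threshold. The called genes have narrow intervals, while Susd5 (-1.03 to 1.99), Myh11 (-1.23 to 0.66) and Lmod1 (-1.01 to 0.52) have wide ones.

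Per kilobase of listed gene length, levels ran over a wide range in WT. The highest were Csrp1 (153 ± 2.12 RPKM, SD, n = 4) and Csrp2 (153 ± 4.98 RPKM), followed by Cnn2 (86.3 ± 4.97 RPKM) and Mcam (83.5 ± 3.63 RPKM). Csrp1 and Csrp2 did not differ beyond their spread in WT, nor did Cnn2 and Mcam. The lowest were Kcnmb1 (0.767 ± 0.179 RPKM) and Susd5 (0.346 ± 0.177 RPKM), and Susd5 had 9 to 69 counts per library. Tagln (transgelin), a leading transcript of smooth muscle, was listed at 19.9 ± 3.7 RPKM, between Myh11 (9.78 ± 3.91 RPKM) and Cnn1 (25.1 ± 2.43 RPKM). The smooth muscle actin Acta2 stood at 492 RPKM. Of the exon bases of Tagln, 62.4% are shared with Gm48529 on the opposite strand, and 5.43% with Pcsk7. Over all libraries Gm48529 had 606 counts and Pcsk7 5959, against 5529 for Tagln. How the authors assigned reads in such shared stretches is unknown here, and the level of Tagln is therefore uncertain.

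**Figure D2:**
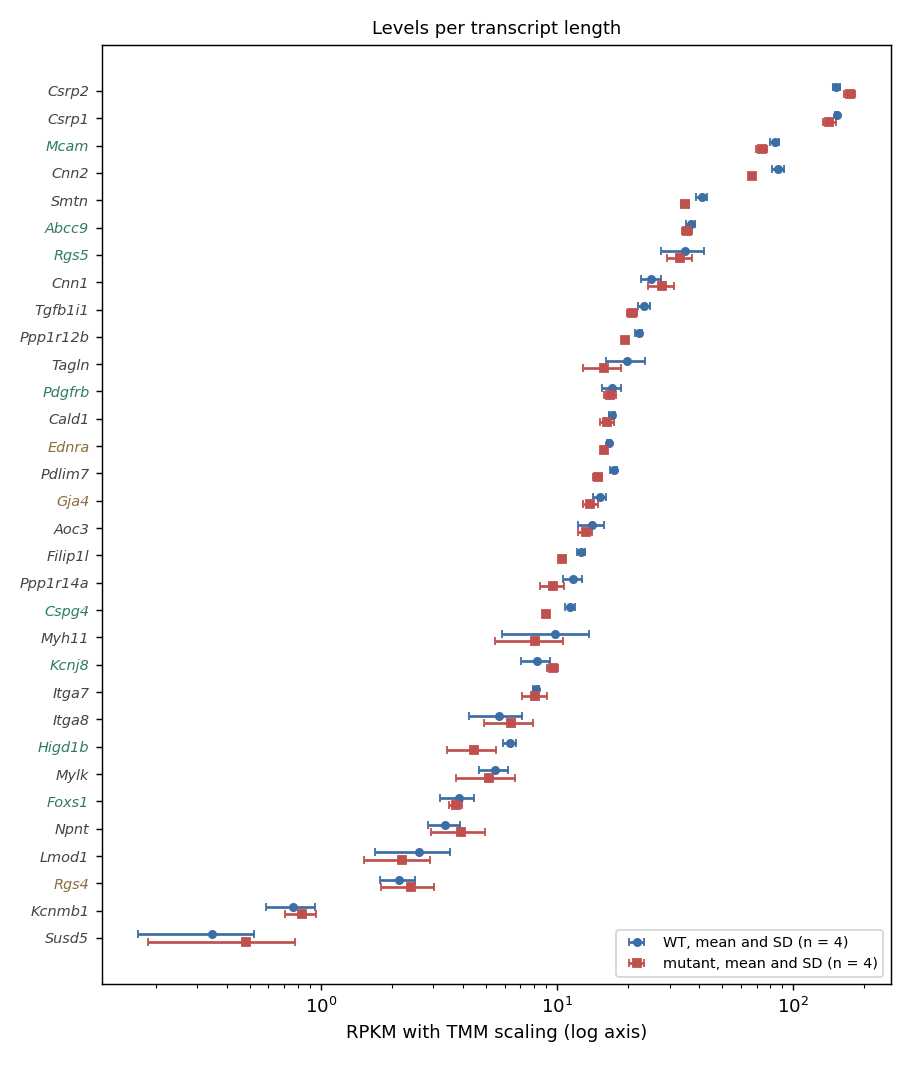
Level of each member per kilobase of listed gene length (RPKM with TMM scaling, log axis), mean and SD of 4 WT and 4 mutant libraries. Csrp1 and Csrp2 stand at the top, both at 153 RPKM in WT, and Susd5 at the bottom; names are dark grey for smooth muscle, brown for both cell types and green for pericytes.

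Among the 7 filament proteins of smooth muscle, 2 fell and 5 were not called. Cnn2, the calponin that is also made outside smooth muscle (chromosome 10, 79988584 to 79996062), was at 213, 229, 201 and 206 CPM in WT replicates 1 to 4 and at 168, 160, 163 and 166 CPM in mutant replicates 1 to 4. Every mutant library lay below every WT library, and the spread was narrower in the mutants (212 ± 12.2 against 164 ± 3.20 CPM, SD, n = 4). The log2 fold change was -0.37 ± 0.04 (SE, adjusted p = 7.9e-05), and the call held under all 23 alternative settings.

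Smtn (smoothelin, a cytoskeletal protein of contractile smooth muscle; chromosome 11, 3517523 to 3540612) was at 172, 189, 171 and 186 CPM in WT and at 146, 153, 160 and 154 CPM in the mutants. The groups did not overlap, and the change was -0.23 ± 0.04 (adjusted p = 0.0033). Its exons share 16.3% of their bases with the antisense gene Gm11946, which had 167 counts over all libraries against 26110 for Smtn. The actin-binding Cald1 (caldesmon) was at 206 ± 5.62 CPM in WT and 197 ± 13.1 CPM in the mutants and was not called (-0.07 ± 0.05, adjusted p = 0.41).

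By the ratio of highest to lowest library, the filament genes most tied to smooth muscle differed more within a genotype than between genotypes. For Tagln, the change was larger than the pooled SD of log2 CPM within genotypes, 0.27. Myh11, the smooth muscle myosin heavy chain (chromosome 16, 14194527 to 14291408), was at 57.0, 35.4, 69.5 and 97.5 CPM in WT and at 53.3, 29.2, 63.6 and 67.1 CPM in the mutants. The highest WT library held 2.75 times the lowest, and the groups overlapped. The change was -0.28 with a 95% interval from -1.23 to 0.66 (adjusted p = 0.73), and the spread within each genotype was wider than the difference. Tagln was at 37.2, 32.3, 38.9 and 49.7 CPM in WT and at 35.3, 23.3, 31.6 and 35.4 CPM in the mutants (-0.33 ± 0.18, adjusted p = 0.32). Lmod1 (leiomodin, which nucleates actin filaments) was at 10.3 ± 3.57 CPM in WT and 8.70 ± 2.71 CPM in the mutants (-0.24 ± 0.32, adjusted p = 0.72). Cnn1, the calponin of differentiated smooth muscle, had a higher mean in the mutants (76.0 ± 9.55 against 68.7 ± 6.66 CPM) with overlapping groups (0.15 ± 0.10, adjusted p = 0.43). Cnn2 and Cnn1 thus stood on opposite sides of 0, and the difference between their changes was not tested.

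**Figure D3:**
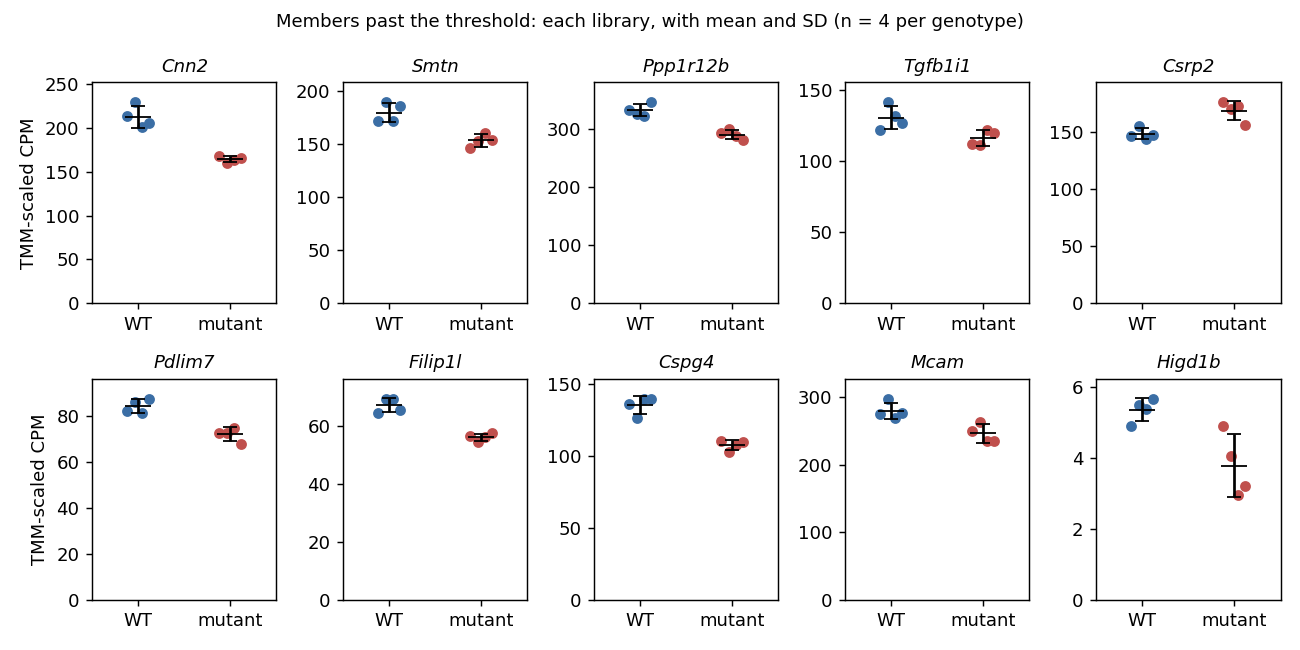
TMM-scaled CPM of the 10 called members in each library, with mean and SD (n = 4 per genotype). Csrp2 is the one that rose (148 to 169 CPM on average); Higd1b is the one whose groups overlap, with mutant replicate 1 at 4.91 CPM just above WT replicate 1 at 4.90 CPM.

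Of the 3 genes that set the phosphorylation of myosin, the phosphatase subunit Ppp1r12b, also made in striated muscle, fell (chromosome 1, 134754658 to 134955942). It was at 334, 327, 323 and 346 CPM in WT and at 293, 300, 289 and 281 CPM in the mutants, with no overlap (-0.19 ± 0.04, adjusted p = 0.0034). Among the 3 libraries whose Scgb3a2 was under 10 CPM, where WT has 1 library, the call was lost (-0.13, adjusted p = 0.31). Ppp1r14a, a phosphatase inhibitor, was at 13.7, 16.7, 16.6 and 17.0 CPM in WT and at 10.9, 13.03, 14.2 and 14.2 CPM in the mutants. It did not pass (-0.29 ± 0.10, adjusted p = 0.062), and it passed without WT replicate 1 (-0.35) and with the airway and lung score as a covariate (-0.29). Mylk, the light-chain kinase, which also has a nonmuscle form, was at 55.4 ± 7.74 CPM in WT and 52.6 ± 14.8 CPM in the mutants (adjusted p = 0.89).

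The adaptors that link LIM domains and actin filaments moved both ways. Csrp2, a cysteine-rich LIM protein (chromosome 10, 110920177 to 110939599), was at 147, 155, 144 and 147 CPM in WT and at 176, 170, 173 and 156 CPM in the mutants. Its lowest mutant library, replicate 4, lay just above its highest WT library, and the change was 0.18 ± 0.04 (adjusted p = 0.010). Its paralogue Csrp1 was at 299, 303, 294 and 302 CPM in WT and at 305, 269, 269 and 271 CPM in the mutants. Mutant replicate 1 was level with WT and the other 3 mutant libraries lay below it. Csrp1 did not pass (-0.10 ± 0.04, adjusted p = 0.14), but was called lower without mutant replicate 1 (-0.15, adjusted p = 0.017).

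Filip1l, a filamin-interacting protein (chromosome 16, 57353093 to 57573126) and the other gene whose CArG box is printed above, was at 64.7, 69.5, 69.4 and 65.7 CPM in WT. In the mutants it was at 56.5, 54.7, 56.2 and 57.6 CPM, all below the lowest WT library (-0.26 ± 0.04, adjusted p = 0.00085). Pdlim7, a PDZ and LIM protein of actin filaments, was at 82.5, 86.2, 81.4 and 87.6 CPM in WT and at 72.9, 72.7, 75.0 and 68.0 CPM in the mutants. Its groups were apart too (-0.23 ± 0.04, adjusted p = 0.0025). Tgfb1i1, a LIM protein of focal adhesions, had the least firm of the smooth muscle calls. It was at 122, 142, 132 and 127 CPM in WT and at 112, 111, 122 and 120 CPM in the mutants, where the third mutant library nearly met the first WT library. The change of -0.17 ± 0.05 (adjusted p = 0.032) was not called with limma-voom (adjusted p = 0.056), library totals (adjusted p = 0.12) or a fit that was not robust (adjusted p = 0.054), nor without any 1 of WT replicates 2, 3 and 4 or mutant replicates 1 and 2 (adjusted p from 0.053 to 0.088). It was also not called among the 5 libraries that reached 10 CPM of Scgb3a2 (-0.07, adjusted p = 0.36).

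None of the 4 adhesion and matrix genes was called, and 3 had positive estimates. Itga7, an integrin subunit of muscle that binds laminin, was at 32.2, 32.5, 34.0 and 32.1 CPM in WT and at 33.3, 27.4, 36.7 and 32.6 CPM in the mutants. Its mean hardly differed (-0.01, 95% interval -0.16 to 0.14, adjusted p = 0.96). Itga8, an integrin subunit of contractile smooth muscle, was at 35.6, 34.9, 40.0 and 57.6 CPM in WT and at 57.0, 33.1, 44.3 and 54.6 CPM in the mutants (0.17 ± 0.24, adjusted p = 0.74). Npnt (nephronectin), a matrix ligand of the Itga8 integrin, was at 16.9 ± 2.59 CPM in WT and 19.8 ± 5.10 CPM in the mutants, with 27.3 CPM in mutant replicate 4 (adjusted p = 0.53). Susd5 was at 0.549 to 2.22 CPM in WT and 0.419 to 3.31 CPM in the mutants.
The amine oxidase Aoc3 was at 59.8, 61.3, 61.5 and 77.4 CPM in WT and at 62.3, 56.0, 60.2 and 66.0 CPM in the mutants (-0.09 ± 0.09, adjusted p = 0.58). Kcnmb1, a subunit of the large calcium-activated potassium channel, was at 3.21 ± 0.751 CPM in WT and 3.48 ± 0.531 CPM in the mutants (adjusted p = 0.77).

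The 3 genes of both cell types overlapped between the genotypes. Ednra, the endothelin receptor of mural cells, was at 92.2, 91.1, 88.3 and 92.4 CPM in WT and at 89.6, 83.6, 86.8 and 86.3 CPM in the mutants. Its change was at most slight (-0.07, 95% interval -0.15 to 0.01, adjusted p = 0.23). Gja4, a connexin shared with arterial endothelium, was at 25.6 ± 1.57 CPM in WT and 23.4 ± 1.73 CPM in the mutants (-0.13 ± 0.07, adjusted p = 0.23). Rgs4, which damps G-protein signals, was at 5.24 to 7.94 CPM in WT and 5.58 to 9.40 CPM in the mutants (adjusted p = 0.62).

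Pericyte genes also parted into some that fell and some that did not pass. Cspg4, a surface proteoglycan of pericytes (chromosome 9, 56865033 to 56899870), was at 136, 126, 139 and 140 CPM in WT and at 110, 103, 107 and 110 CPM in the mutants. Every mutant library lay below WT, and the change was -0.33 ± 0.04 (adjusted p = 0.00013), a call that held under all 23 alternative settings. Mcam, an adhesion molecule of pericytes, smooth muscle and endothelium (chromosome 9, 44134469 to 44142727), was at 275, 297, 270 and 277 CPM in WT and at 250, 264, 236 and 235 CPM in the mutants. The groups did not overlap (-0.18 ± 0.05, adjusted p = 0.015), and the call was lost without mutant replicate 3 (-0.15, adjusted p = 0.071).

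Higd1b, a marker of cardiac and brain pericytes, had the lowest log2 fold change of all members and few counts, from 57 to 110 per library. It was at 4.90, 5.49, 5.39 and 5.67 CPM in WT and at 4.91, 4.05, 2.94 and 3.21 CPM in the mutants. Mutant replicates 3 and 4, which hold airway RNA, were lowest, and mutant replicate 1 was within the WT range. The change was -0.51 ± 0.16 (adjusted p = 0.045), and it was not called without any 1 of 7 libraries, all but mutant replicate 1 (adjusted p from 0.065 to 0.14). It also missed with library totals (adjusted p = 0.062) and with a fit that was not robust (adjusted p = 0.068). Among the 5 libraries that reached 10 CPM of Scgb3a2 it was at -0.79 and called, and in the other 3 at -0.29 and not called.

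The receptor Pdgfrb was at 91.4, 88.4, 87.9 and 106 CPM in WT and at 91.4, 97.9, 85.3 and 92.9 CPM in the mutants, with an interval from -0.16 to 0.11 (adjusted p = 0.87). Abcc9 and Kcnj8 encode the regulatory and pore subunits of the vascular ATP-sensitive potassium channel, and Abcc9 also serves cardiomyocytes. Abcc9 was at 303, 323, 293 and 315 CPM in WT and at 293, 315, 301 and 280 CPM in the mutants (-0.05 ± 0.04, adjusted p = 0.50). Kcnj8 was at 18.2, 21.8, 18.9 and 24.6 CPM in WT and at 24.6, 25.7, 24.9 and 22.5 CPM in the mutants. It did not pass (0.23 ± 0.09, adjusted p = 0.10), and was called higher without WT replicate 4 (0.31). Rgs5, a G-protein regulator and the classical pericyte marker, was at 133, 144, 150 and 206 CPM in WT and at 179, 137, 146 and 145 CPM in the mutants. The highest library of each genotype stood well above the other 3, and Rgs5 was not called (-0.06, 95% interval -0.46 to 0.33, adjusted p = 0.87). The forkhead factor gene Foxs1 was at 5.03 ± 0.824 CPM in WT and 4.89 ± 0.290 CPM in the mutants (adjusted p = 0.90).

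**Figure D4:**
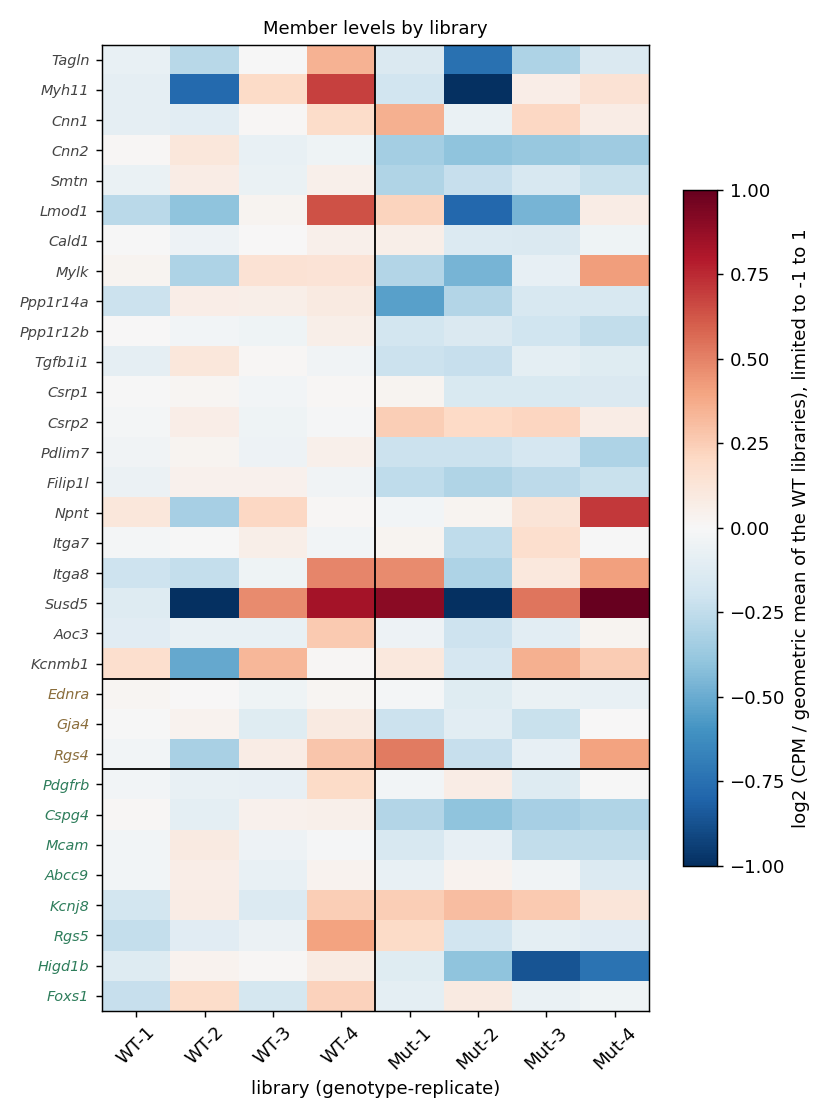
Each member in each library as log2 of its TMM-scaled CPM over the geometric mean of the 4 WT libraries, with colours limited to -1 to 1. Cnn2, Filip1l, Cspg4 and Pdlim7 are evenly lower across the 4 mutant columns, whereas Myh11, Lmod1 and Susd5 are low in WT-2 and Mut-2 and high in WT-4.

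The members also differed in how steady they were within a genotype. The pooled SD of log2 CPM had a median of 0.061 over the 9 genes that fell and of 0.17 over the 22 not called. The test weighs each change against this spread. With changes this small, low spread in called genes and few calls at high spread therefore follow from the test itself. The pooled SD was at least 0.25 for 9 members (Susd5, Myh11, Lmod1, Itga8, Rgs4, Mylk, Kcnmb1, Npnt and Tagln), 8 of them smooth muscle genes and none of them called. All 9 were lowest among WT in replicate 2, and 8 of the 9 were lowest among mutants in replicate 2. These are the 2 libraries with the least Scgb3a2, at 0.817 and 0.328 CPM. WT replicate 4 was highest among WT for 6 of the 9, although its Scgb3a2 (176 CPM) was the lowest of the 5 libraries with airway RNA. The 13 airway and lung markers summed to 3.30 to 524 CPM in WT and 1.95 to 816 CPM in mutant libraries. The visceral smooth muscle actin Actg2 was at 14.8, 10.3, 19.4 and 20.997 CPM in WT and at 10.2, 6.98, 10.8 and 12.1 CPM in the mutants, again lowest in replicate 2 of each genotype (-0.71 ± 0.27, adjusted p = 0.15). The part of airway tissue in the levels of the 9 genes was not tested. With the airway and lung score as a covariate, none of the 9 was called, and 10 members were lower and 2 higher, Kcnj8 being the added one that rose.

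**Figure D5:**
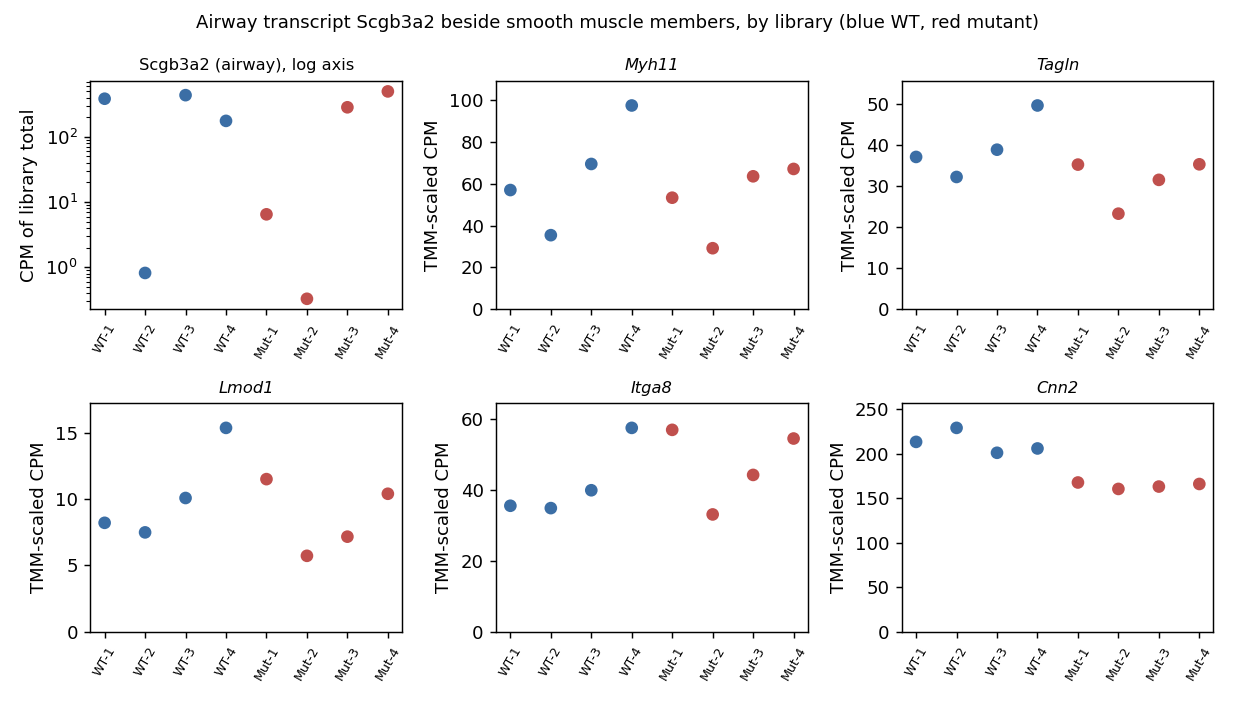
Scgb3a2 (CPM of the library total, log axis) beside TMM-scaled CPM of 5 smooth muscle members in each library. Myh11, Tagln, Lmod1 and Itga8 are lowest in replicate 2 of each genotype, where Scgb3a2 is lowest; Cnn2 separates the genotypes in all 8 libraries.

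Summed over the 21 smooth muscle genes, CPM lay between 2026 and 2188 in WT and between 1792 and 1961 in the mutants. Over the 8 pericyte genes, the sum lay between 965 and 1080 in WT and between 893 and 957 in the mutants. With TMM scaling both sums were lower in all 4 mutant libraries, though the pericyte sums nearly met (957 against 965 CPM). The TMM factors were 0.963 to 0.993 in WT and 1.009 to 1.033 in the mutants. Higher factors lower the mutant CPM, so the lack of overlap depends on this scaling. Both sums are led by a few abundant genes such as Ppp1r12b, Csrp1 and Abcc9, of which Csrp1 and Abcc9 were not called. Markers of other cell types moved as well. The 8 cardiomyocyte markers summed to 54984 to 61637 CPM in WT and 46370 to 52239 CPM in the mutants, with 1 lower (Actc1) and 7 not called. The 9 skeletal muscle markers summed to 2441 to 2724 CPM in WT and 2025 to 2242 CPM in the mutants, and Myod1 had no count in any library. Of the 7 tested, 3 were lower. Ckm alone had 343055 counts over all libraries and leads this sum, which cannot be assigned to skeletal muscle cells. The 7 erythroid markers had the lowest median of these lists, -0.84, with all 7 estimates negative and none called. Their sum was 2034 to 3893 CPM in WT and 1252 to 1973 CPM in the mutants, and haemoglobin genes took 0.195% to 0.370% of WT and 0.123% to 0.193% of mutant counts. Without mitochondrial and haemoglobin genes, the medians of the smooth muscle and pericyte members were -0.10 and -0.06. Of 7 epicardial markers, 2 rose (Tbx18 and Aldh1a2) and 2 fell (Upk1b and Msln), and of 8 macrophage markers 1 rose (Lyz2). The sums of the 8 endothelial markers (1549 to 1725 and 1466 to 1624 CPM) and the 8 fibroblast markers (5072 to 6697 and 5353 to 5874 CPM) overlapped. The part of these shifts in the results on smooth muscle and pericyte genes was not tested.

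Genes outside the 32 members were read from lists of the pathway. Of 10 genes for SRF and its cofactors, Mrtfb rose (0.17 ± 0.05, adjusted p = 0.042) and Klf4 fell (-0.20 ± 0.06, adjusted p = 0.044). Each call was lost under at least 10 of 23 alternative settings. Srf itself was at 234 ± 10.6 CPM in WT and 219 ± 10.4 CPM in the mutants (adjusted p = 0.19), and Myocd, the gene of myocardin, at 88.8 ± 4.51 and 97.3 ± 6.44 CPM (adjusted p = 0.098). Of 14 genes of the contraction pathway, none rose and 2 fell: the guanylate cyclase subunit Gucy1b1 (-0.21 ± 0.04) and the phosphatase subunit Ppp1cb (-0.14 ± 0.04, a call lost under 11 of 23 settings).

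Of 22 genes for mural recruitment and Notch, 5 rose and 3 fell. Pdgfb, the endothelial ligand of PDGFR-beta, was at 60.5, 73.0, 62.4 and 64.4 CPM in WT and at 44.6, 48.2, 44.2 and 45.3 CPM in the mutants. The groups were far apart (-0.51 ± 0.06, adjusted p = 6.4e-05). Its receptor gene Pdgfrb, above, was at -0.02, and the difference between the 2 changes was not tested. Angpt1, the mural ligand of the endothelial receptor Tek, was at 28.4, 24.8, 30.9 and 25.3 CPM in WT and at 52.0, 59.2, 52.0 and 46.0 CPM in the mutants (0.93 ± 0.09, adjusted p = 7.9e-05). Angpt1 thus rose in every mutant library, and Tek rose as well (0.20 ± 0.04). Calls for Pdgfb and Angpt1 held under all 23 alternative settings. Also in this list, Ednrb (0.35), Tgfbr1 (0.21, lost under 6 of 23 settings) and Tgfbr2 (0.13, lost under 9) rose, and Tgfb3 (-0.34) and Eng (-0.32) fell. The mural receptor Notch3 was at 127 ± 17.5 CPM in WT and 118 ± 8.74 CPM in the mutants (adjusted p = 0.61).

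Of 14 transcription factor genes of mural cells and their precursors, Tbx18 (0.48 ± 0.09) and Nr2f2 (0.27 ± 0.05) rose and Prrx1 (-0.41 ± 0.06) and Tcf21 (-0.25 ± 0.05) fell. Among 15 tested further pericyte markers, which share Rgs5 with the members, the mitochondrial subunit genes Ndufa4l2 (-0.45 ± 0.06) and Cox4i2 (-0.52 ± 0.10) fell and Gjc1, a connexin of mural cells and the conduction system, rose (0.18 ± 0.04). Ndufa4l2 and Cox4i2 had no overlap between genotypes, with Cox4i2 at 8.81, 8.14, 7.52 and 8.83 CPM in WT and at 5.97, 5.86, 5.36 and 6.04 CPM in the mutants. Among further smooth muscle genes, Des (-0.36 ± 0.05), Nexn (-0.28 ± 0.05) and Cav1 (-0.18 ± 0.04) fell, and each is also made in cardiomyocytes or endothelium. In the actin, light-chain and tropomyosin families set aside from the members, 6 of 7 genes fell, among them Acta2 (877 ± 42.4 to 748 ± 39.1 CPM, -0.23 ± 0.05) and Myl9 (-0.39 ± 0.05). Which cells of the heart these 6 falls came from was not tested.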

How the data were processed

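RNA from dissected E18.5 hearts was extracted with Trizol and made into libraries by the Illumina TruSeq method, per the labels' protocols. The authors deposited whole-number counts for each gene, both by library and in a joint table, and 0 of 394520 values differed between them. Tools named are Trimmomatic 0.36, STAR 2.5.2b and featureCounts (Subread 1.5.2), with build GRCm38, per the submitters' processing notes. No source used here gives the strand setting or annotation release, and reads of overlapping antisense genes cannot be told apart. Gene lengths are those of the files, and symbols came from GENCODE M21 (48970 of 49315 genes).

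Genes were kept by filterByExpr (minimum count 10), scaled by TMM and tested with the robust quasi-likelihood test of edgeR 4.0.16 in R 4.3.3 over 16372 genes, without covariates. The fit was checked on counts simulated from these libraries, with 1 spread shared by all genes. It recovered 10 of 48 genes changed 1.25-fold, 43 of 49 changed 1.5-fold and 46 of 49 changed 2-fold. Of 157 simulated calls, 8 were false. Small changes are thus often missed, and a member not called may still differ. RPKM divides TMM-scaled CPM by gene length. Pairs of libraries within a genotype differed by a chi-square per degree of freedom of 2.88 to 9.29. Alternatives used DESeq2 1.42.0, limma-voom (limma 3.58.1), other scalings and filters, covariates and subsets of libraries. The airway and lung score is the mean of log2(CPM + 0.5) over 13 epithelial markers. Each called member, and the most abundant member of each role group, is given by library, as are called genes of the other lists by their change. Myh11, Tagln, Itga8, Ppp1r14a, Kcnj8, Actg2, Angpt1, Pdgfb and Cox4i2 are given by library, and the SD threshold of 0.25 was set, after their values were seen. The members and lists were chosen with earlier results of these data known. Part of the list of further smooth muscle genes is not reported here.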

Additional observations from a re-analysis of the deposited data

Results flagged for a closer look

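In groups of 4, a library was set aside for a closer look where its gap to the nearest other library was above Dixon's 95% critical value as a share of the group's range. This was met in 3 of 64 groups over the 32 members, and chance flags about 1 in 20. Ppp1r14a was at 13.7 CPM in WT replicate 1, below the other WT libraries at 16.6 to 17.0 CPM. Csrp1 was at 305 CPM in mutant replicate 1, above the other mutant libraries at 269 to 271 CPM. Aoc3 was at 77.4 CPM in WT replicate 4, above the other WT libraries at 59.8 to 61.5 CPM. Ppp1r14a and Csrp1 were both called lower once that library was left out. Leaving out the lowest WT or the highest mutant value widens the gap by construction, so these calls add no support.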

How the results depend on the processing

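Over 23 alternative settings, Cnn2 and Cspg4 kept their calls in all, and Smtn and Filip1l in all but the Xist covariate. The number of members called lower ranged from 7 to 9 with 1 library left out, was 7 with library totals and with a fit that was not robust, 8 with limma-voom, and 2 with the Xist covariate. The number called higher (1) ranged from 1 to 2 with a library left out, was 2 with library totals and with the airway and lung covariate, 3 without a filter on low counts, and 0 with the Xist covariate and in the libraries with Scgb3a2 under 10 CPM. Over all genes, 942 were higher and 1226 lower. With library totals these were 1856 and 858, a scaling that moved the median of all genes by 0.053. They were 109 and 141 with the Xist covariate, and 609 higher among libraries that reached 10 CPM of Scgb3a2. In the libraries under 10 CPM they were 595 and 812. Leaving out 1 library gave 579 to 850 higher and 899 to 1137 lower. The Xist covariate nearly follows genotype, so calls and signs under it cannot be told apart from a loss of the genotype effect. The cause of the other moves was not tested, apart from the fewer samples in the subsets.

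Changes of sign occurred in members not called under either setting. With the Xist covariate Npnt was at -0.28, Kcnmb1 at -0.099, Pdgfrb at 0.0258, Abcc9 at 0.0205, Rgs5 at 0.27 and Foxs1 at 0.15. Among libraries that reached 10 CPM of Scgb3a2 Mylk was at 0.0824 and Itga7 at 0.0745, and among the others Myh11 was at 0.22, Lmod1 at 0.19, Cald1 at 0.0138, Pdgfrb at 0.11 and Rgs5 at 0.13. With library totals Itga7 was at 0.0422, Pdgfrb at 0.0291 and Foxs1 at 0.0127. With 1 library left out the ranges were -0.28 to 0.0380 for Mylk, -0.0653 to 0.0638 for Itga7, -0.0553 to 0.0425 for Pdgfrb, -0.0308 to 0.23 for Kcnmb1, -0.11 to 0.0362 for Foxs1, -0.40 to 0.0150 for Lmod1, -0.13 to 0.00475 for Aoc3 and -0.15 to 0.0884 for Rgs5.

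The replicate numbers were not taken to pair the samples, and the labels give no pairing. Deviations of same-numbered libraries correlated between -0.52 and 0.77, and 4 of the 8 libraries correlated best with their own number. These values cannot exclude a shared litter or batch. With the number as a block (replicate block), 12 members were lower and 1 higher, and 1023 genes were higher and 1432 lower. Tagln (-0.33), Myh11 (-0.26) and Ppp1r14a (-0.29) were the added calls.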
